A study of Mus musculus with 6 samples.

Results

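The T cell receptor complex and the first steps of its signalling were followed through 9 genes of the 54532 in the deposited count table, matched by gene symbol: the invariant CD3 chains Cd3e, Cd3d, Cd3g and Cd247, the coreceptor chains Cd8a and Cd8b1, the kinases Lck and Zap70, and the adaptor Lat. All 9 were found and all 9 were among the 14883 genes with enough counts to be tested. The study asked how macrophages whose transcription factor Spi1 was inhibited affect CD8T cells. RNA of mouse T cells was sequenced after coculture with untreated cells (control, n = 3) or with cells treated with DB2313, an inhibitor of Spi1 (DB2313, n = 3). According to the methods, the T cells of both groups were CD8T cells isolated from mouse spleen and activated with anti-CD3/CD28 beads, and the cocultured cells were thioglycolate-induced peritoneal macrophages activated with IFN-γ. The labels name the samples primary T cells and the cocultured cells DC cells, so the sources differ on the partner of the coculture. The groups were taken from the treatment given for each sample. A protocol text that is the same for all 6 samples names DB2313 for the control samples as well, which goes against that treatment label. The strain and age of the animals that gave the cells, and whether the libraries of a group came from separate cultures, are not given in the sources used here, and the p-values below measure only the spread between these libraries.

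The T cell receptor recognises a peptide on an MHC molecule through its variable alpha and beta chains, which have almost no cytoplasmic part of their own. The signal leaves the complex through the CD3 epsilon, delta, gamma and zeta chains, whose immunoreceptor tyrosine-based activation motifs (ITAMs) are phosphorylated by Lck, a Src family kinase brought to the complex by the coreceptor CD8 or CD4. Phosphorylated ITAMs recruit the kinase Zap70, which in turn phosphorylates Lat, the membrane adaptor on which the calcium, Ras and NF-kappaB branches assemble.

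Libraries held between 16611975 and 18596217 counts on genes. Replicates differed from each other by more than sampling noise and by far less than the groups did, with a chi-square per gene of 2.54 to 3.999 within a group and 51.8 to 56.0 between groups. The libraries held transcripts of other cells too. The 15 macrophage markers took 1.04% to 1.06% of the counts in the control libraries and 0.373% to 0.384% in the DB2313 libraries, with 13 of 15 lower and Marco and Trem2 higher, and the most abundant, Lyz2, stood at 7702 ± 133 CPM (normalised counts, scaled by TMM and to a common library size) in control and 2084 ± 36.6 in DB2313 (SD, n = 3). The share of the 7 neutrophil markers was 0.137% to 0.138% in control and 0.0551% to 0.0576% in DB2313, with 6 of 7 lower, 1 higher and S100a9 the most abundant. The 10 dendritic cell markers took 0.189% to 0.195% in control and 0.208% to 0.213% in DB2313. After TMM scaling their sum was 1959 to 2028 CPM in control and 2018 to 2072 CPM in DB2313, so the groups overlapped. Of the 9 tested, 3 were higher: Clec10a (log2 fold change 1.18), Bst2 (0.45) and Flt3 (0.36). Another 5 were lower: Cd209a (-3.54), Clec9a (-2.15), Zbtb46 (-0.44), Fscn1 (-0.20) and Ccr7 (-0.10), the most abundant of the list. Xcr1 was not past the threshold and Siglech was at 0 in every library. These counts of markers stand beside 20.8% of all tested genes called higher and 24.6% called lower. Cd4, the helper T cell coreceptor, was plainly present as well. Its level per kilobase of gene length was 52.8 ± 0.62 CPM in control, between 32.6 ± 1.07 for Cd8a and 72.4 ± 4.06 for Cd8b1. Fewer cells of a type and less RNA per cell cannot be told apart in such bulk libraries, and the part of the markers' shift in the results below was not tested.

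All 9 genes rose in the DB2313 group. Their log2 fold changes lay between 0.32 and 0.74 with a median of 0.63, against a median of 0.019 over all tested genes. Of all tested genes, 20.8% were called higher and 24.6% lower (edgeR's quasi-likelihood test, Benjamini-Hochberg adjusted p below 0.05), and among the 1813 protein-coding genes at least as abundant as Zap70 in mean CPM, 32.2% were higher with a median log2 fold change of -0.034. The split of all calls depended on the scaling, with 45.8% of them higher after TMM, 63.4% after scaling by library size alone and 58.2% by the upper quartile, while all 9 genes were higher under each. None of the 9 passed a 2-fold change, which 6.67% of all tested genes did. The groups did not overlap in 9 of 9, the DB2313 libraries being the higher, an ordering found in 25.6% of all tested genes. Summed over the 9 genes, the TMM-scaled level was 1484 CPM (1479 to 1490) in control and 2291 CPM (2284 to 2298) in DB2313. Without TMM scaling, their mean share of all counts was 0.143% in control and 0.236% in DB2313.

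**Figure D1:**
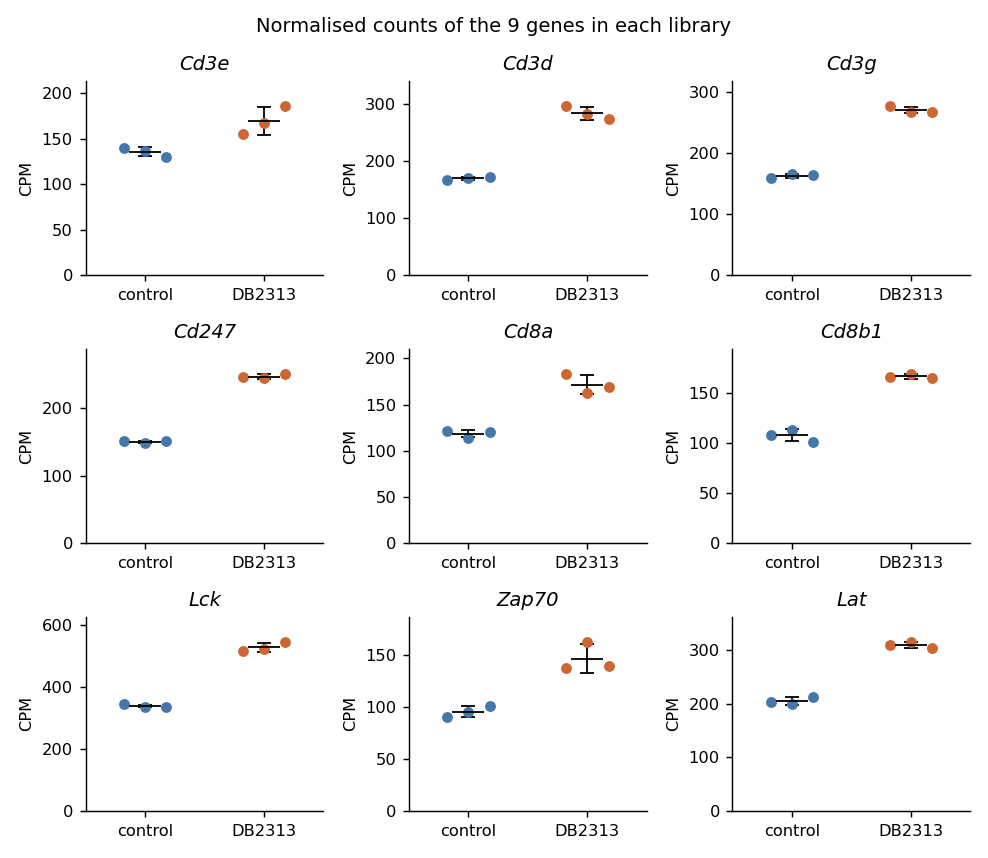
TMM-scaled CPM (y axis, from 0) of each of the 9 genes in the 3 control and 3 DB2313 libraries (points), with the mean (bar) and SD (whiskers). In every panel the DB2313 points lie above the control points, and the gap is narrowest for Cd3e, where the highest control library had 140.3 CPM and the lowest DB2313 library 155.5 CPM.

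The invariant chains split into 3 that rose alike and 1 that rose less. Cd3d, the delta chain, had 166.9, 170.8 and 171.5 CPM in the control libraries and 295.2, 281.5 and 272.8 CPM in the DB2313 libraries. Cd3g, the gamma chain, had 159.0, 164.8 and 164.4 CPM in control and 275.8, 266.6 and 266.4 CPM in DB2313. Cd247, the zeta chain, had 151.1, 148.3 and 151.3 CPM in control and 245.9, 245.2 and 250.8 CPM in DB2313. All 3 chains were tightly grouped in both conditions and far from overlapping. Their log2 fold changes were 0.74 ± 0.037 (SE) for Cd3d, 0.73 ± 0.035 for Cd3g and 0.72 ± 0.035 for Cd247, with adjusted p-values in edgeR's quasi-likelihood test of 4.81e-14, 2.67e-14 and 2.62e-14. Cd3e, the epsilon chain, which pairs with both the delta and the gamma chain and is bound by commonly used anti-CD3 antibodies, had 140.3, 136.6 and 130.7 CPM in control and 155.5, 167.2 and 185.8 CPM in DB2313. Its DB2313 libraries were the more scattered, from close above the controls to well above them. The log2 fold change of Cd3e was 0.32 ± 0.050 (SE, adjusted p = 1.15e-05 in edgeR's quasi-likelihood test), and its 95% interval, 0.22 to 0.42, did not meet that of Cd3d, 0.66 to 0.81.

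Ratios taken within a library do not depend on the scaling between libraries. The Cd3d to Cd3g ratio of counts was 1.04 ± 0.0067 in control and 1.05 ± 0.024 in DB2313, a log2 difference of 0.0098 (p = 0.6, two-sided exact permutation test, n = 3 per group). The ranges of the libraries overlapped for this pair of chains. The Cd3d to Cd3e ratio was 1.19, 1.25 and 1.31 in control and 1.90, 1.68 and 1.47 in DB2313, a log2 difference of 0.42 that ranged from 0.33 to 0.52 when single libraries were left out. The Cd247 to Cd3e ratio differed by 0.40 and the Lck to Cd3e ratio by 0.32 on the log2 scale. The Cd8a to Cd3e ratio was 0.873 ± 0.044 in control and 1.02 ± 0.14 in DB2313, and these groups overlapped (log2 difference 0.22, p = 0.2, two-sided exact permutation test, n = 3 per group). In the other 3 ratios to Cd3e the groups did not overlap, and each had p = 0.1 in the two-sided exact permutation test, the smallest that 3 against 3 libraries can give, and an adjusted p of 0.2 over the 12 ratios computed (exact permutation, Benjamini-Hochberg). With this number of libraries no ratio could pass the threshold of 0.05.

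In the genome (GRCm38 coordinates of the deposited table) the delta, gamma and epsilon chains are neighbours on chromosome 9. Cd3g (ENSMUSG00000002033, chr9:44969572-44980431, minus strand) and Cd3d (ENSMUSG00000032094, chr9:44981786-44987339, plus strand) start 1355 bases apart and point away from each other, and Cd3e (ENSMUSG00000032093, chr9:44998740-45009627, minus strand) starts 27841 bases from Cd3d. Cd247 (ENSMUSG00000005763, chr1:165788681-165877277, plus strand) lies on another chromosome, and its change was close to those of Cd3d and Cd3g. An effect of position was not tested. The 250 bases before the RefSeq start site of each of these 4 genes (GRCm38.p6, 5′ to 3′ on the gene's strand) are shown because they are the windows in which the chain that rose less can be set beside the other 3, with capitals marking GGAA, the core of the sites bound by ETS factors such as Spi1, and its reverse complement TTCC. The windows are chr9:45009612-45009861 for Cd3e, chr9:44981536-44981785 for Cd3d, chr9:44980432-44980681 for Cd3g and chr1:165788431-165788680 for Cd247.
Cd3e: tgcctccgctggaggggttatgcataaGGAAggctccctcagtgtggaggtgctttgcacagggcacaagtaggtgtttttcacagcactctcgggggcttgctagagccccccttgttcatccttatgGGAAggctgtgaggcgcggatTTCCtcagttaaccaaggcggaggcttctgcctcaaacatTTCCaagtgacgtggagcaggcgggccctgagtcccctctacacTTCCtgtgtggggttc
Cd3d: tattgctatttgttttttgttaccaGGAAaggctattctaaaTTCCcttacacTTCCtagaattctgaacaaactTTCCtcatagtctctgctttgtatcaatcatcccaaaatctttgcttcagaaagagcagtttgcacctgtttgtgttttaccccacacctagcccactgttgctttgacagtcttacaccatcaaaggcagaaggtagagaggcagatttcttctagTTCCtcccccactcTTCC
Cd3g: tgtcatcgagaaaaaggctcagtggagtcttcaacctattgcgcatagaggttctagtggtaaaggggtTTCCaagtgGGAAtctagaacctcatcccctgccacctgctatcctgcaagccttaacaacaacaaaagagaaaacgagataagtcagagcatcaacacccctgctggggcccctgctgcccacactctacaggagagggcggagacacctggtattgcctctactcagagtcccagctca
Cd247: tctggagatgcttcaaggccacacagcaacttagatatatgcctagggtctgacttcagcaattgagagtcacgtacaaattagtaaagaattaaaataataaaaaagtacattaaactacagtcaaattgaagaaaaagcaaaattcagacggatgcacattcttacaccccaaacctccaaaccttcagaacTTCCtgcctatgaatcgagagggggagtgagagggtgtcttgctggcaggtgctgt
The core occurred 5 times in the Cd3e window, 6 times in that of Cd3d, 2 times in that of Cd3g and 1 time in that of Cd247, counting both strands. DB2313 was given to the cocultured cells, and binding of Spi1 or any other factor to these windows was not tested. So short a core is common: over windows of 300 bases, which run 50 bases past the start, it was found in 96% of 32851 RefSeq windows, 3.52 times on average, and in the window at the gene's start nearest to the table's in all 8 of the 9 genes with an entry (Cd8b1 had none). TGTGGT, a core bound by Runx factors, searched on both strands as well, was in 16.8% of all windows and in 2 of those 8 windows, at Lck and Lat, and it was also in the window of another RefSeq start of Zap70.

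Translated from their principal GENCODE transcripts, Cd3e (189 residues), Cd3d (173) and Cd3g (182) each held 1 ITAM and Cd247 (164) held 3, so the chain with the most ITAMs rose with Cd3d and Cd3g. Reads of overlapping genes could enter some of these counts, or shared reads be missing from them, and neither was tested. Whether counting used the strand is not given. Cd3e overlaps the antisense gene Gm48719 over 3557 bases, which had at most 58 counts in any library and a log2 fold change of 0.47. On its own strand Cd3e overlaps Gm48720 over 1206 bases, which had at most 11 counts. Among others, Cd247 overlaps Pou2f1 on the opposite strand over 12124 bases, which had at most 750 counts and a log2 fold change of 0.08. On its own strand Cd247 overlaps Gm16565 over 687 bases, which had at most 40 counts. Cd3d, Cd3g and both CD8 chains overlap no other annotated gene.

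The coreceptor chains rose with the receptor. Cd8a, the alpha chain, which carries the Lck-binding cysteine motif (found 1 time in its 247 residues and 0 times in the 213 of Cd8b1), had 121.2, 114.0 and 120.4 CPM in control and 182.9, 163.0 and 168.7 CPM in DB2313. Cd8b1, the beta chain of the conventional coreceptor, had 107.9, 113.2 and 101.2 CPM in control and 165.6, 168.4 and 164.3 CPM in DB2313. Neither chain's groups overlapped. The log2 fold changes were 0.53 ± 0.044 (SE) for Cd8a and 0.63 ± 0.042 for Cd8b1, with adjusted p-values of 4.09e-10 and 9.06e-12 in edgeR's quasi-likelihood test. The Cd8b1 to Cd8a ratio of counts was 0.908 ± 0.078 in control and 0.971 ± 0.064 in DB2313, a log2 difference of 0.099 with overlapping groups (p = 0.4, two-sided exact permutation test, n = 3 per group). The genes lie on the same strand of chromosome 6, Cd8b1 (ENSMUSG00000053044) at chr6:71322788-71337494 and Cd8a (ENSMUSG00000053977) at chr6:71373427-71379173, with 35932 bases between them. Cd4 moved in the same direction, from 213.0 ± 2.51 to 294.0 ± 4.58 CPM (log2 fold change 0.47), and the Cd4 to Cd8a ratio of counts, 1.76, 1.85 and 1.79 in control and 1.64, 1.79 and 1.72 in DB2313, differed by -0.067 on the log2 scale (p = 0.3, two-sided exact permutation test). The other CD4 T cell markers were mixed, with 4 of 5 higher in all and Zbtb7b, a factor of the CD4 lineage, lower. Among the 8 CD8 T cell markers, which include 5 of the 9 genes, 7 were higher, among them Nkg7, a cytotoxic granule gene (0.71). Runx3, a transcription factor of the CD8 lineage, did not pass the threshold (-0.093).

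Both kinases and the adaptor rose by similar amounts. Lck, the kinase that starts the cascade, had 344.1, 336.0 and 336.5 CPM in control and 516.4, 522.2 and 545.2 CPM in DB2313. Zap70 had 90.2, 95.1 and 100.9 CPM in control and 137.6, 162.6 and 139.3 CPM in DB2313, the second DB2313 library standing above the other two. Lat, the adaptor, had 203.0, 199.7 and 213.3 CPM in control and 308.7, 315.0 and 304.4 CPM in DB2313. None of the 3 overlapped between the groups. The log2 fold changes were 0.64 ± 0.033 (SE) for Lck, 0.62 ± 0.054 for Zap70 and 0.59 ± 0.035 for Lat, with adjusted p-values of 1.13e-13, 1.46e-09 and 1.57e-12 in edgeR's quasi-likelihood test. The ratios of Zap70 and Lat to Lck overlapped between the groups: the log2 difference was -0.023 for the Zap70 to Lck ratio (p = 0.9) and -0.048 for the Lat to Lck ratio (p = 0.6, two-sided exact permutation tests, n = 3 per group). Lck (ENSMUSG00000000409) lies at chr4:129548344-129573641 on the minus strand, Zap70 (ENSMUSG00000026117) at chr1:36761798-36782818 on the plus strand and Lat (ENSMUSG00000030742) at chr7:126363824-126369570 on the minus strand.

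Compared per length, Lck was the highest of the 9 in both groups when the length was the union of a gene's exons, at 115.7 ± 1.54 CPM per kilobase in control and 180.2 ± 5.19 in DB2313. Cd3d followed at 93.5 ± 1.37 and 156.0 ± 6.23. In control, Lat (74.2 ± 2.56) and Cd8b1 (72.4 ± 4.06) did not differ beyond their spread, and nor did Cd3e (33.3 ± 1.19), Cd8a (32.6 ± 1.07) and Zap70 (31.9 ± 1.79), while Cd3g (49.8 ± 0.99) stood between these sets and Cd247 was lowest (28.2 ± 0.31). In DB2313, Cd3e (41.5 ± 3.75) moved from the 6th to the 9th place, below Cd247 (46.4 ± 0.57), Cd8a (47.2 ± 2.82) and Zap70 (49.0 ± 4.66). These last 4 lay close together. The order depends on the length used: per kilobase of the principal transcript, Lat (166.2 ± 5.73), Cd3g (159.1 ± 3.17) and Lck (155.1 ± 2.07) led in control, and Cd3e moved from the 5th to the 6th place.

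**Figure D2:**
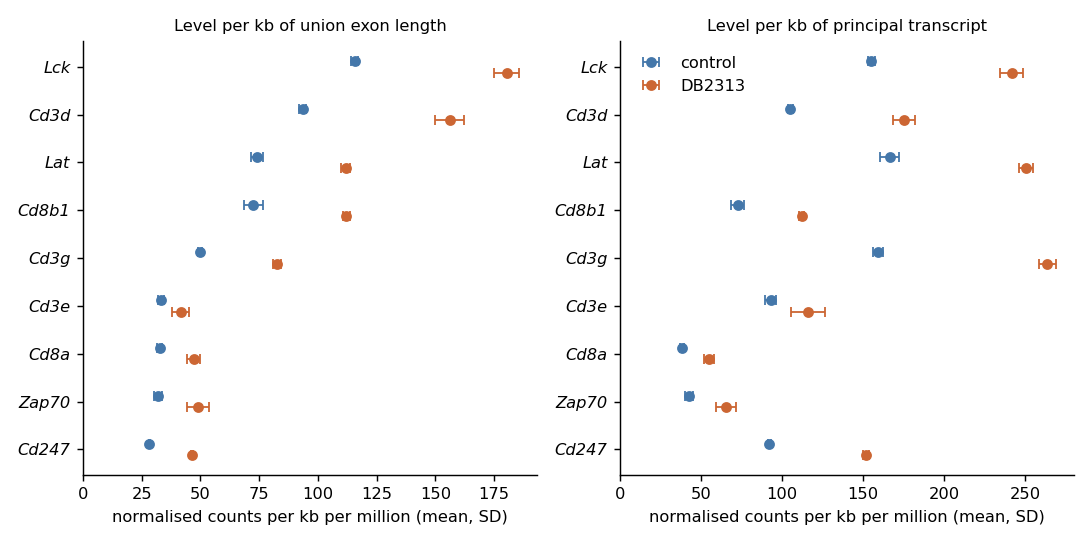
Mean level of each gene (x axis, TMM-scaled CPM per kilobase, with SD as whiskers, n = 3) in control and DB2313, per kilobase of the union of its exons (left) and of its principal transcript (right). Every gene lies further right in DB2313, and Cd3d, Cd3g and Cd247 move past Cd3e or away from it on both scales.

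The wider pathway did not move as 1 block. The counts of each list below stand beside 20.8% of all tested genes called higher and 24.6% called lower. The constant regions of the receptor's own chains rose: all 4 tested were higher with a median log2 fold change of 0.66, with Trac, the alpha constant region, at 173.8 ± 5.88 CPM in control and 275.4 ± 5.91 in DB2313 (0.66), Trbc1 at 0.66, Trbc2 at 0.54 and Trdc, of gamma delta T cells, at 0.69. Trbc1 and Trbc2 are near-identical in sequence, so their separate values are uncertain. These changes lay between that of Cd3e and those of the other CD3 chains. The Trgc1, Trgc2 and Trgc4 names were matched to no row of the table, which calls the gamma constant regions Tcrg-C1, Tcrg-C2 and Tcrg-C4. Those were not among the 4 tested here and are reported with the gamma delta T cell genes below.

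Of 8 proximal kinases and regulators of Lck, 5 were higher, 2 lower and Tec did not pass the threshold, with a median of 0.26. Ptprcap, a partner of the phosphatase CD45 (0.67), and Txk, a Tec family kinase (0.55), were among those that rose. Csk, the kinase that holds Lck inactive (-0.11), and Pag1, its membrane anchor (-0.37), fell. Both were counted in this list and not among the negative regulators below. Of 16 adaptors near the receptor, 9 were higher, 2 lower and 5 not past the threshold, with a median of 0.22. Sh2d1a, the SLAM receptor adaptor SAP (0.95), Lax1, a Lat-like membrane adaptor (0.76), and Skap1, an adaptor for integrin activation (0.67), rose the most, while Grb2 (-0.30) and Cd2ap (-0.14), both used in many cell types, fell.

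Of 15 negative regulators, 8 were higher, 4 lower and 3 not past the threshold, with a median of 0.37. Sla2, an adaptor that lowers surface receptor (0.73), Cd6, a T cell surface regulator (0.49), and Dgka, which removes diacylglycerol (0.47), rose, and Ptpn6, the phosphatase SHP-1 (-0.58), Dok1 (-0.46) and the ubiquitin ligase Cbl (-0.38) fell. Of 18 genes downstream of Lat, 5 were higher, 6 lower and 7 not past the threshold, and the median was 0.03, near that of all genes. Prkcq, the T cell protein kinase C theta (0.54), Carmil2, a CD28 signalling scaffold (0.49), and Plcg1, the phospholipase that Lat binds (0.33), rose, and the transcription factor Nfatc2 (-0.40) and the calcineurin subunit Ppp3ca (-0.38) fell. Together, 31 of these 61 other pathway genes were higher and 14 lower, with a median of 0.13, and 0 passed a 2-fold change. The part that was lower was near the 24.6% of all tested genes. The part that was higher, 50.8%, stood above the 20.8% of all tested genes. It also stood above the 32.2% of protein-coding genes at least as abundant as Zap70, a closer background, though some of the 61 were less abundant than that.

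Close relatives that do the same work in myeloid and B cells went the other way. All 11 were lower, with a median of -0.87, and 2 of 11 passed a 2-fold change, among them the Src family kinase Fgr (-2.09). Lyn, of the same family as Lck, was at -0.89. Syk, the relative of Zap70, had 289.9, 275.8 and 277.7 CPM in control and 156.4, 151.9 and 157.6 CPM in DB2313 (-0.86). The Syk to Zap70 ratio of counts was 2.96 ± 0.24 in control and 1.07 ± 0.12 in DB2313. Lat2, the relative of Lat, changed by -0.46 and its ratio to Lat by -1.05 on the log2 scale. Fcer1g, an ITAM chain of Fc receptors that resembles Cd247, changed by -0.61, and its ratio to Cd247 went from 2.38 ± 0.040 to 0.949 ± 0.059. Each of these 3 ratios had groups that did not overlap and p = 0.1, the smallest possible here (two-sided exact permutation test, n = 3 per group). Other relatives were Tyrobp, an ITAM chain of myeloid receptors (-0.96), Plcg2 (-0.92), Prkcd (-0.87), Blnk (-0.71) and Btk (-0.52). The macrophage and neutrophil marker shares given above were lower in the same libraries, and their part in these falls was not tested.

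**Figure D3:**
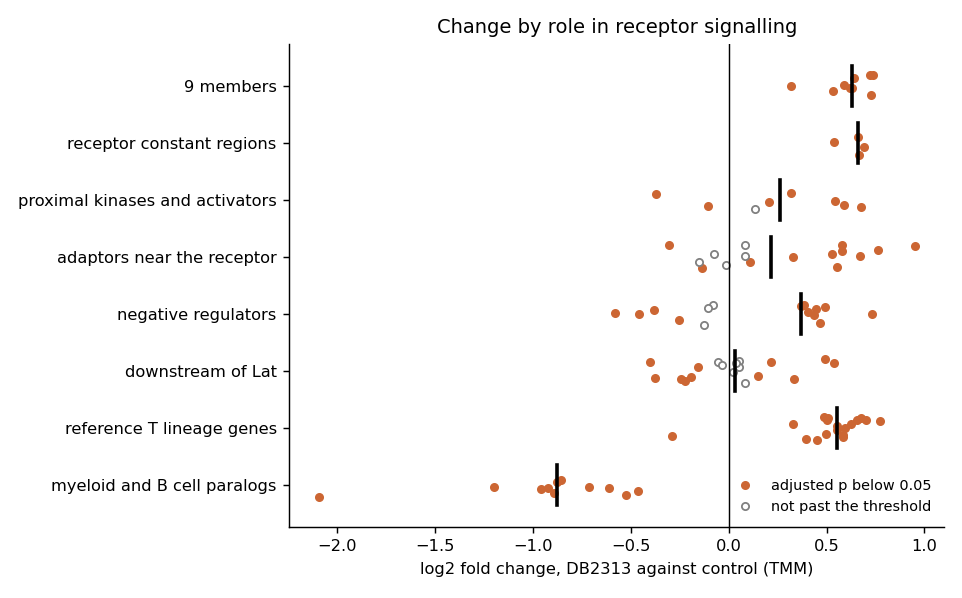
Log2 fold change, DB2313 against control (x axis), of every tested gene in each role list (y axis), filled where the adjusted p was below 0.05, with the median of the list as a black bar. The 9 genes and the receptor constant regions lie wholly above 0, the myeloid and B cell relatives wholly below 0, and the genes downstream of Lat on both sides. The row labelled proximal kinases and activators also holds Csk and Pag1.

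**Figure D4:**
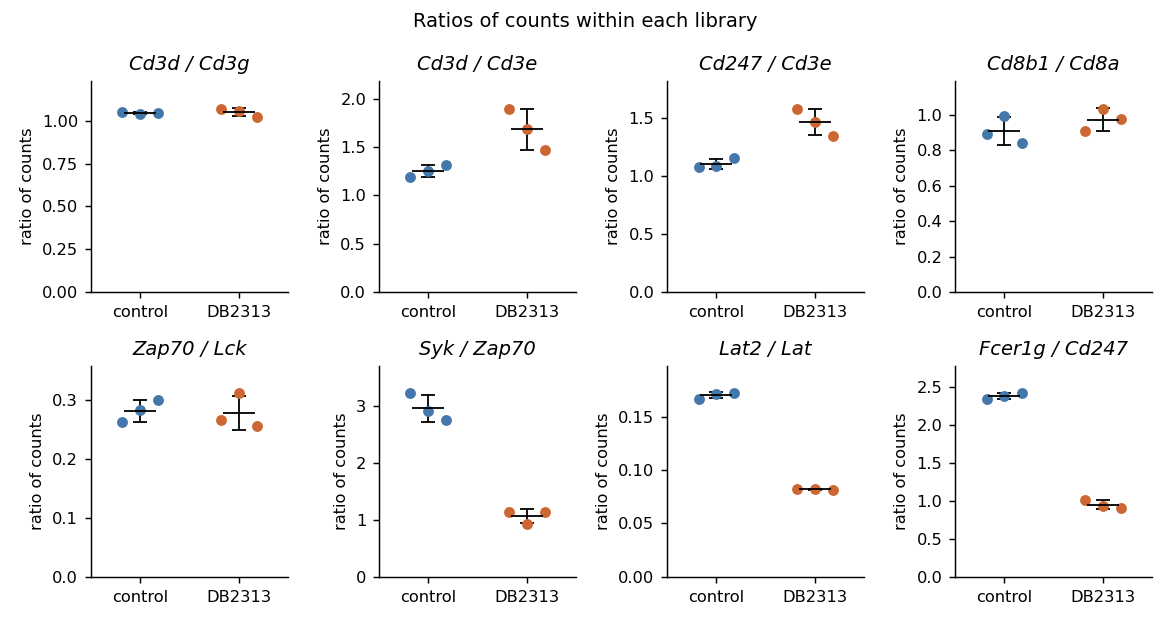
Ratio of counts of gene pairs within each library (y axis, from 0) for the 3 control and 3 DB2313 libraries (points), with the mean (bar) and SD (whiskers). The groups overlap for Cd3d to Cd3g, Cd8b1 to Cd8a and Zap70 to Lck, and lie apart for Cd3d and Cd247 against Cd3e and for Syk, Lat2 and Fcer1g against their T cell relatives.

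The 9 genes were also set against 18 T lineage genes outside the pathway, such as Cd2, Thy1 and Il7r. In these, 17 of 18 were higher and 1 lower, with a median of 0.55; the largest rises were in Ms4a4b (0.78), Gimap6 (0.70) and Cd27 (0.67), and the gene that fell was Ly6c2 (-0.29), which monocytes express as well. When the libraries were scaled to the sum of these 18 genes, which moved the median of all genes by -0.49, 7 of the 9 genes were still called higher, and Cd3e turned lower, where 1.85% of all tested genes were higher and 72.1% lower. On this scale 7 of the 18 reference genes were themselves called higher and 2 lower. Among the 9 genes, Cd3d (0.25), Cd3g (0.24) and Cd247 (0.23) stood highest, followed by Lck (0.15), Cd8b1 (0.14), Zap70 (0.13) and Lat (0.11). Cd8a was at 0.047 (adjusted p = 0.337) and Cd3e at -0.17 (adjusted p = 0.00415, edgeR's quasi-likelihood test). The value of Cd3e ran from -0.24 to -0.11 when single libraries were left out, and without the first DB2313 library its adjusted p was 0.0553 in edgeR's quasi-likelihood test. The calls of Zap70 (down to 0.048) and Lat (down to 0.085) were lost when control library 1 or 2 or DB2313 library 2 was left out. Without Ly6c2 among the reference genes, a choice made after the data were seen, Cd3d (0.17), Cd3g (0.16) and Cd247 (0.15) were called higher and Cd3e (-0.25) lower, beside 1.27% and 76.5% of all tested genes, and Lck, Cd8b1, Zap70, Lat and Cd8a, between -0.037 and 0.069, were not called. So 4 calls were the same with either reference, and those of Lck, Cd8b1, Zap70 and Lat rested on Ly6c2. Of the 61 other pathway genes, 8 were higher and 39 lower on the scale of the 18 genes, beside 1.85% and 72.1% of all tested genes. The share called higher was above that of all genes and the share called lower below it.

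**Figure D5:**
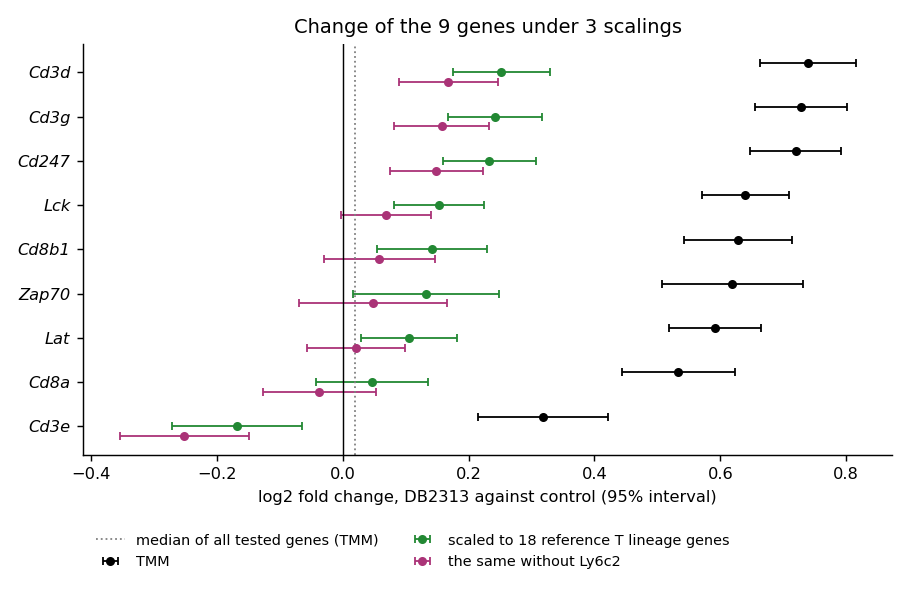
Log2 fold change, DB2313 against control (x axis, with 95% intervals), of the 9 genes after TMM scaling (black), after scaling to 18 reference T lineage genes (green) and to the same genes without Ly6c2 (purple), with the median of all tested genes after TMM as a dotted line. All 9 lie above 0 after TMM, and after both other scalings Cd3d, Cd3g and Cd247 stay above 0 and Cd3e lies below it.

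Over the 6 libraries, the protein-coding genes whose log2 CPM followed the mean of the 9 genes most closely were Apol7e (Pearson r = 0.9995), Ifngr1 (0.9994), Mmp13 (0.9993), Srp68 (0.9993) and Ifit3b (0.9993), of 9325 genes with at least 10 CPM. Each of these rose with DB2313, and 214 genes had an r above 0.99. The 6 points share the difference between the groups, so this likeness is a description only.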

How the data were processed

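RNA-seq counts of 6 libraries, 3 per group, were used. The authors deposited raw counts per gene with gene lengths; the labels' processing notes name CASAVA 1.8, HISAT2 2.0.5 and featureCounts 1.5.0-p3, whereas the methods name LifeScope, so the counting tool is uncertain. Genome build and strand setting are not given in the sources used here. Of the genes shared with GENCODE release M21, 98.3% had its GRCm38 coordinates. Columns were matched to samples by their labels.

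Genes were filtered (filterByExpr), scaled (TMM) and tested with edgeR 4.0.16 in R 4.3.3 (glmQLFit, glmQLFTest) with Benjamini-Hochberg adjustment over all 14883 genes, at thresholds of 0.05 and, for 2-fold, an absolute log2 fold change of 1. The scripts were tested on simulated counts. The brackets after gene names hold log2 fold changes. The 9 genes and all lists were chosen with earlier results of these data known. The text names the 9 genes, the 3 largest called changes in each direction of each role list, the myeloid and B cell relatives, the most abundant gene of each marker list and the 5 genes with the most similar pattern. Some genes that this rule takes are not reported here. Other names (Tec, Marco, Trem2, Xcr1, Siglech, Zbtb7b, Runx3, Nkg7 and the remaining dendritic cell markers) were chosen after their values were seen. A count of 0 allows up to 3 counts; this covers counting error only. Alternatives were DESeq2 1.42.0, library size, upper quartile, DESeq2 size factor and reference gene scaling, omitting the filter, requiring 10 counts per library, protein-coding genes, a replicate block and leaving out each library. Scaling without Ly6c2 and transcript length were added after the data were seen.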

Additional observations from a re-analysis of the deposited data

How the results depend on the processing

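All 9 genes were called higher under DESeq2, the other general scalings, both filters, protein-coding genes and each left-out library, and 0 passed 2-fold under any alternative. Their median log2 fold change of 0.63 became 0.72 with library size scaling, 0.69 with upper quartile scaling, 0.14 with scaling to the 18 T lineage genes and 0.058 without Ly6c2 among these, and ran from 0.62 to 0.66 when single libraries were left out. Scaling to the T lineage genes left 7 called higher and 1 called lower, with Cd3e at -0.17. Of the 18 reference genes themselves, 7 were called higher and 2 lower on that scale. Without Ly6c2, 3 were called higher and 1 lower, with Cd3e at -0.25 and Cd8a at -0.037 (not called). The downward shift of all genes on both scales follows from the construction, since the reference genes themselves rose. The median of the 9 genes stayed 0.61 above that of all genes, as after TMM. The differences among the 9 genes do not follow from the construction. On that scale Zap70 and Lat each lost the call when control library 1 or 2 or DB2313 library 2 was left out. Of 144 single-gene comparisons, 136 kept direction and call, 5 lost the call and 3 turned. Of all called genes, 45.8% were higher after TMM, 63.4% with library size (4931 higher, 2852 lower) and 58.2% with upper quartile. T lineage scaling called 275 higher and 10726 lower, and 189 and 11389 without Ly6c2. Replicate numbers did not pair the samples (correlations of same-numbered deviations -0.0033, -0.014 and -0.023). With a replicate block all 9 stayed higher, the median was 0.63, and 2912 genes were called higher and 3525 lower, against 3096 and 3667 without it. With 3 libraries a group, the ratios cannot go below p = 0.1 in exact permutation tests.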

Other observations

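Markers of gamma delta T, NK and B cells each took under 0.01% of the counts in every library. The shares of all tested genes called higher and lower were 20.8% and 24.6%. The 5 gamma delta T cell genes found in the table, the constant regions Trdc, Tcrg-C1, Tcrg-C2 and Tcrg-C4 and the factor Sox13, were all higher with DB2313, at a median of 0.73 (log2 fold change), and took 0.00469% to 0.00548% of counts in control and 0.00876% to 0.00929% in DB2313. Trdc was the most abundant of them, at 14.9 ± 1.85 and 24.0 ± 1.67 CPM (SD, n = 3). All 4 tested NK cell markers were higher, and the list's share was 0.00200% to 0.00215% in control and 0.00343% to 0.00386% in DB2313, with Eomes, a factor that activated CD8 T cells express as well, the most abundant. Of 6 B cell markers, 3 were higher, Cd22 was lower, and 2 did not pass the threshold, Pax5 among them (edgeR's quasi-likelihood test); their share was 0.00466% to 0.00507% in control and 0.00648% to 0.00656% in DB2313, with Cd79b the most abundant. The share of the 5 CD4 T cell markers was 0.0527% to 0.0544% in control and 0.0686% to 0.0700% in DB2313.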
